A study of Saccharomyces cerevisiae with 30 samples.

Results

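The first cycle of a synchronized culture was read by setting the transcript levels at 60, 70 and 80 min after release against those at 30, 40 and 50 min. These are 6 of the 30 libraries of the series, with 1 library per time point and 3 time points per window. The windows were compared over the 5137 of 7127 features whose mean over the 30 libraries reached 10 TPM, or transcripts per 1000000. At this minimum, HPR1 with a mean of 9.998 TPM was left out and CWC22 with 10.002 TPM was kept, and their differences between the windows were similar, at 0.17 and 0.18 on the log2 scale. Every library came from 1 culture of the yeast Saccharomyces cerevisiae, of MATa bar1 genotype and BF264-15D background, grown at 38.5°C in rich YEP medium with 2% dextrose. The cells had been held in G1 with 40 ng/ml alpha-factor, the mating pheromone of the opposite mating type, for 150 min and were then released, and RNA was taken every 10 min from 0 to 290 min. All groups therefore share the strain, the temperature, the medium and the preceding arrest, and they differ in time since release.

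In budding yeast, passage through the cell cycle is accompanied by successive waves of transcription. The factors SBF and MBF switch on genes for budding and DNA synthesis at the G1 to S transition, histone genes follow in S phase, and Mcm1 with a forkhead factor and Ndd1 drives the CLB2 cluster in G2 and M. Genes for cell separation and the next G1, here called the M/G1 list, are then switched on at mitotic exit, while Mcm1 acts at early cell cycle boxes (ECB) upstream of genes that include those of the replication licensing complex. A culture released from G1 passes through these stages together at first and loses synchrony with time.

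Between the windows, genes of G1/S and S phase fell and genes of mitosis, mitotic exit and early G1 rose. All 9 histone genes were lower at 60 to 80 min, as were 7 of 18 SBF targets and 5 of 25 tested MBF and replication genes, and no member of these lists was called higher. Called higher were 3 of 18 genes of the M/G1 list, 3 of 9 genes of the licensing and early G1 list and 3 of 27 genes of the CLB2 cluster. Over all features, 42 (0.818%) were called lower and 50 (0.973%) higher. A call required that the 3 values of one window lie wholly above or below those of the other, and that the window means of log2(scaled TPM + 1) differ by at least 1.5-fold. Folds between the windows are on this log2(scaled TPM + 1) scale, also where mean levels in scaled TPM stand beside them. Scaled TPM are TPM divided by a median-of-ratios factor of the library, and every level given here is in scaled TPM. The words rose and fell are used of called features alone. With 1 library per time point there is no replicate check, so the windows are compared without a test or a p-value. Errors are SDs over the 3 time points of a window, which include the course of the cycle itself.

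Most transcripts differed little between the windows. The median log2 difference of all tested features was -0.0064, the quartiles were -0.11 and 0.10, and 97.2% of features lay within 1.5-fold. A difference of at least 2-fold was found for 1 of the called features that fell and 16 of those that rose. Non-overlap alone, without the fold requirement, held for 643 features (12.5%) in the lower and 584 (11.4%) in the higher direction. The scaling factors of the 6 libraries ran from 1.05 at 40 min to 1.15 at 50 min, and before scaling 51.5% of the tested features were above both neighbouring time points at 50 min, against 25.03% after it. TPM keep no record of depth, so how many reads support a level is unknown. TPM are also shares of each library, so a difference is relative to the other transcripts. In a bulk culture, fewer cells at a stage and less transcript per cell cannot be told apart. The labelled mating type fits the markers in part. MFA2 and STE2, an a-factor gene and the alpha-factor receptor gene, were expressed at 182 scaled TPM or more, BAR1, which the strain lacks, was at 0 TPM in all 30 libraries, and the 4 alpha-specific genes summed to 38.4 to 46.3 scaled TPM in the 6 libraries. The 6 a-specific genes summed to 2232 to 2569 scaled TPM at 30 to 50 min and 1927 to 4500 at 60 to 80 min. MFA1 was listed at 0 TPM in 28 of the 30 libraries, and short transcripts listed at 0 may be failed estimates.

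**Figure D1:**
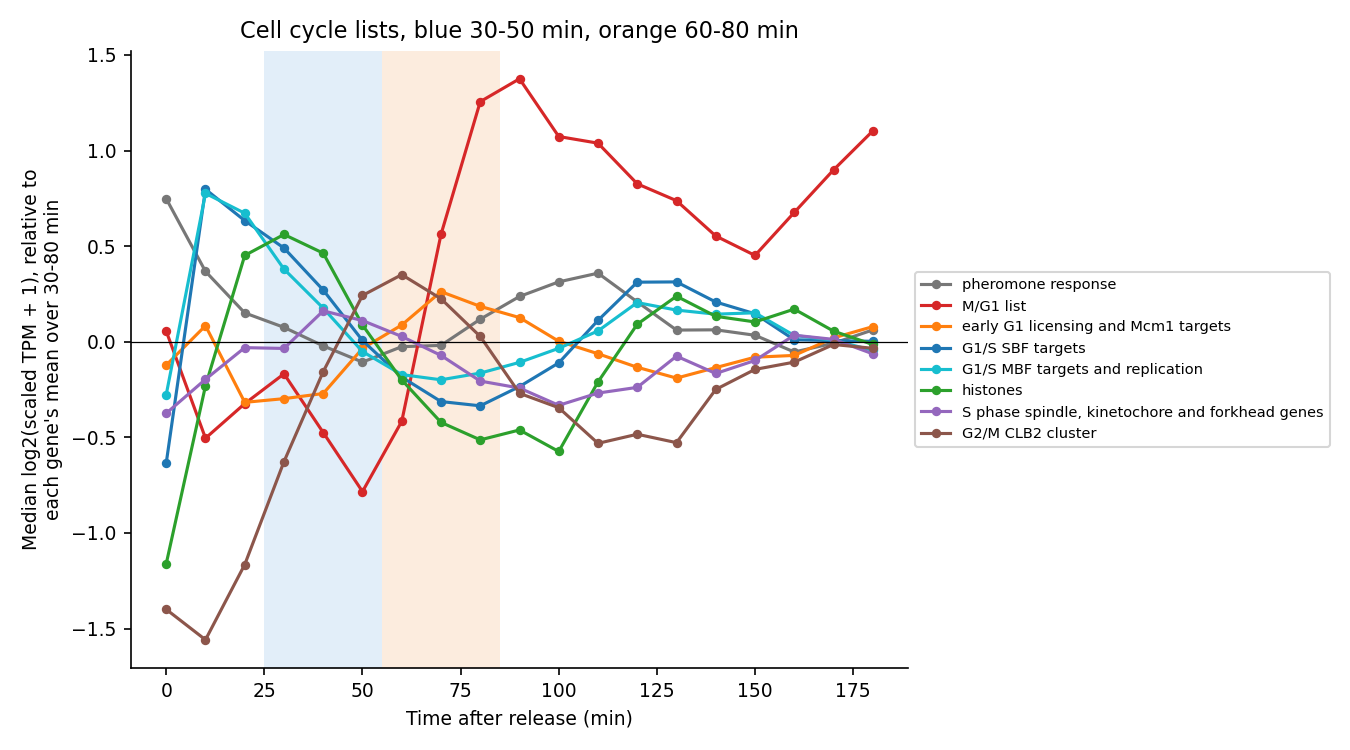
Median level of the tested members of 8 cell cycle lists by time after release (x axis, min), as log2(scaled TPM + 1) relative to each gene's mean over the 6 time points at 30 to 80 min (y axis). The histone median was highest at 30 min (0.56), the CLB2 cluster at 60 min (0.35), and the M/G1 list stood at 1.26 at 80 min.

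Upstream sequences are shown for 6 genes that represent some of the programs, because each holds the letters of an element searched here. Elements were searched on both strands in the 300 bases before the start codon of 6001 protein-coding genes of the R64 assembly (RefSeq). The 200 bases from 300 to 101 bases before the start codon are printed, read 5′ to 3′ on the strand of the gene, with the element in capitals. A match is a description of letters and not of binding. The SCB element of SBF (CNCGAAA) is in capitals in PCL1, at chrXIV:87597-87796 (plus strand), and in HTB1, at chrIV:914813-915012 (minus strand), in a stretch that lies between HTB1 and HTA1. The MCB element of MBF (ACGCGT) is in capitals in CDC21, at chrXV:467690-467889 (minus strand).
PCL1: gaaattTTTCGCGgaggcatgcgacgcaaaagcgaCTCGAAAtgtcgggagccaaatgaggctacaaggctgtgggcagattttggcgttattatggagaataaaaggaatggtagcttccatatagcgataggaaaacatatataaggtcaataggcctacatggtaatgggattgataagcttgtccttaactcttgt
HTB1: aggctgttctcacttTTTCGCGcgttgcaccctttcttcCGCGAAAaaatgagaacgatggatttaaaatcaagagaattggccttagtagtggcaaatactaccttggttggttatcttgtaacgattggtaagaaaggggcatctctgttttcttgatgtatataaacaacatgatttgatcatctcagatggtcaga
CDC21: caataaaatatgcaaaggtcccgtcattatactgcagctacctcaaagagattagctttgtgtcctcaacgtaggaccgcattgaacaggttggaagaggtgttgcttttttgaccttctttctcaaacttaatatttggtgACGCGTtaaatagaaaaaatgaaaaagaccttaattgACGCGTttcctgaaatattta

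The genes that rose are represented by MCM5, SPO12 and PHO5. The ECB (TTNCC and GGAAA with 6 bases between them) is in capitals in MCM5, at chrXII:691255-691454 (plus strand), and the forkhead element (GTAAACA) in SPO12, at chrVIII:401134-401333 (plus strand). The E-box bound by Pho4 (CACGTG) is in capitals in PHO5, at chrII:431052-431251 (minus strand). Matches to other elements stay in lower case here. MCM5 also holds 2 SCB matches, SPO12 also holds 1 ECB, and PHO5 also holds 1 match to the forkhead letters.
MCM5: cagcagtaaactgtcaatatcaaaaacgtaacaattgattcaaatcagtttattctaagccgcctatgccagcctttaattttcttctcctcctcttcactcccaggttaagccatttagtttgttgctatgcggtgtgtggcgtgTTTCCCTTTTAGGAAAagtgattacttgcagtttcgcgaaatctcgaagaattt
SPO12: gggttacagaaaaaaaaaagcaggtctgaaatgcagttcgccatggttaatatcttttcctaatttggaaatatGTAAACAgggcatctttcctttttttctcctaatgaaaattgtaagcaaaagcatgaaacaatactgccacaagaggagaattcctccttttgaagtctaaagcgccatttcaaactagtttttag
PHO5: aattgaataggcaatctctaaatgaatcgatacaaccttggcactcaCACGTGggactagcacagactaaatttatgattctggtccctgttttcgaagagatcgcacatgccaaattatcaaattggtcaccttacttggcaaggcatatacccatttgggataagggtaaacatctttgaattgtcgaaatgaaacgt

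The histone genes, which encode the proteins that package newly made DNA, were the only 1 of the 14 lists in which every member was called. HTB2, which encodes histone H2B, had 1111, 1029 and 831 scaled TPM at 30, 40 and 50 min and 624, 487 and 465 at 60, 70 and 80 min. Each value was below the one 10 min before it. The mean was 991 ± 144 scaled TPM (SD, n = 3 time points) in the early and 525 ± 85.9 in the late window, a 1.89-fold fall. HTA1, which encodes H2A, went from 799.9, 738 and 500.0 to 428, 364 and 301 scaled TPM, and HTA2, its other copy, from 438, 414 and 307 to 252, 216 and 164. HTB1, whose upstream stretch with its pair of SCB matches is printed above, went from 664, 541 and 484 to 369.9, 307 and 298. The windows did not overlap for any of the 9 genes, while 12.5% of all features were lower without overlap. The falls were 1.54- to 1.89-fold on the log2(scaled TPM + 1) scale.

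The H3 and H4 genes and the linker histone gene HHO1 were within the same range. HHT2, the more abundant H3 gene, fell 1.60-fold, HHF2, an H4 gene, 1.68-fold, and HHO1 1.54-fold, from 113 ± 16.4 to 72.5 ± 7.41 scaled TPM. The list median was -0.75 on the log2 scale, compared to -0.0064 for all features. Between neighbouring time points the largest median step was that from 40 to 50 min, at -0.38, with all 9 genes lower. The highest of the 6 time points was 30 min for 8 genes and 40 min for HHO1. Histone genes come in near-identical copies, and RSEM divides reads that map to more than 1 copy by estimation, so the split within a pair is uncertain.

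The SBF targets, genes for budding, cell wall and the G1 cyclins, were already past their highest point. The list median was highest at 10 min and was lower at each later time point up to 80 min. The study's detection function flagged the libraries at 0, 10 and 20 min, which the authors suspected could reflect the release from arrest. Among the 7 genes that fell, TOS6, a cell wall protein gene, had 341, 296 and 204 scaled TPM in the early and 169, 158 and 131 in the late window, a 1.80-fold fall. PCL1, a cyclin partner of the kinase Pho85, had 48.9, 37.8 and 22.5 scaled TPM and then 21.96, 20.1 and 16.2. Its windows were separated by little, since 50 and 60 min were nearly equal, and most of its 1.76-fold fall came before 50 min. MNN1, a Golgi mannosyltransferase gene, went from 40.9, 35.7 and 27.9 to 22.6, 19.3 and 19.4 scaled TPM. The other genes that fell were SVS1, which acts at the cell wall, YOX1, a homeobox repressor of ECB genes, CSI2, a membrane protein gene, and AXL2, which marks the axial bud site, with falls of 1.59- to 1.65-fold. The 18 genes had a median of -0.56, 17 differences were below 0 and 13 were without overlap, compared to 12.5% of all features. The exception in sign was RAX2, a bud site gene, at 0.13.

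The G1 cyclins CLN1 and CLN2, which start the cycle, were lower without overlap but did not reach 1.5-fold. CLN1 had 16.4, 13.4 and 11.4 scaled TPM and then 9.51, 8.58 and 8.67. CLN2 had 67.2, 52.7 and 48.3 scaled TPM and then 40.8, 42.4 and 47.2. CLN1 stayed at its low level at 80 min, whereas CLN2 was higher at 80 than at 60 min. CLN3, the cyclin that acts upstream of SBF, went the other way, with 39.2, 33.7 and 39.8 and then 40.8, 46.1 and 45.7 scaled TPM.

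The list of MBF targets and replication genes had a smaller median difference than the histones. NRM1, a co-repressor of MBF, had 46.5, 47.8 and 43.7 scaled TPM and then 28.1, 24.98 and 20.7. Unlike PCL1 it was level through the early window, and it fell 1.85-fold, from 46.0 ± 2.11 to 24.6 ± 3.72 scaled TPM. RNR1, the large subunit of ribonucleotide reductase, had 157, 128 and 104 scaled TPM and then 85.9, 74.6 and 69.9. MCD1, a cohesin subunit, had 24.8, 20.4 and 16.6 scaled TPM and then 12.5, 11.5 and 11.9. POL30, which encodes the sliding clamp PCNA, fell 1.58-fold, and CDC21, which encodes thymidylate synthase and whose MCB matches are printed above, fell 1.52-fold. CDC21 had 43.5, 35.4 and 22.97 scaled TPM and then 20.9, 22.9 and 20.2, so that 50 to 80 min were level.

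Of the 25 tested MBF list members, 24 had a difference below 0 and the median was -0.35. Without overlap were 14, compared to 12.5% of all features. The highest of the 6 time points was 30 min for 23 of them, and the median step was -0.23 between 30 and 40 min but 0.00056 between 60 and 70 min. The S phase cyclin CLB5 had 20.8, 20.8 and 17.9 scaled TPM and then 15.3, 15.4 and 14.8, without overlap. CLB6, its close relative, did not pass the minimum and is not counted, nor are 6 other list members. Without the library at 30 min, 2 SBF and 2 MBF list members were called lower in place of 7 and 5. Of all features, 30 were then called lower in place of 42.

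**Figure D2:**
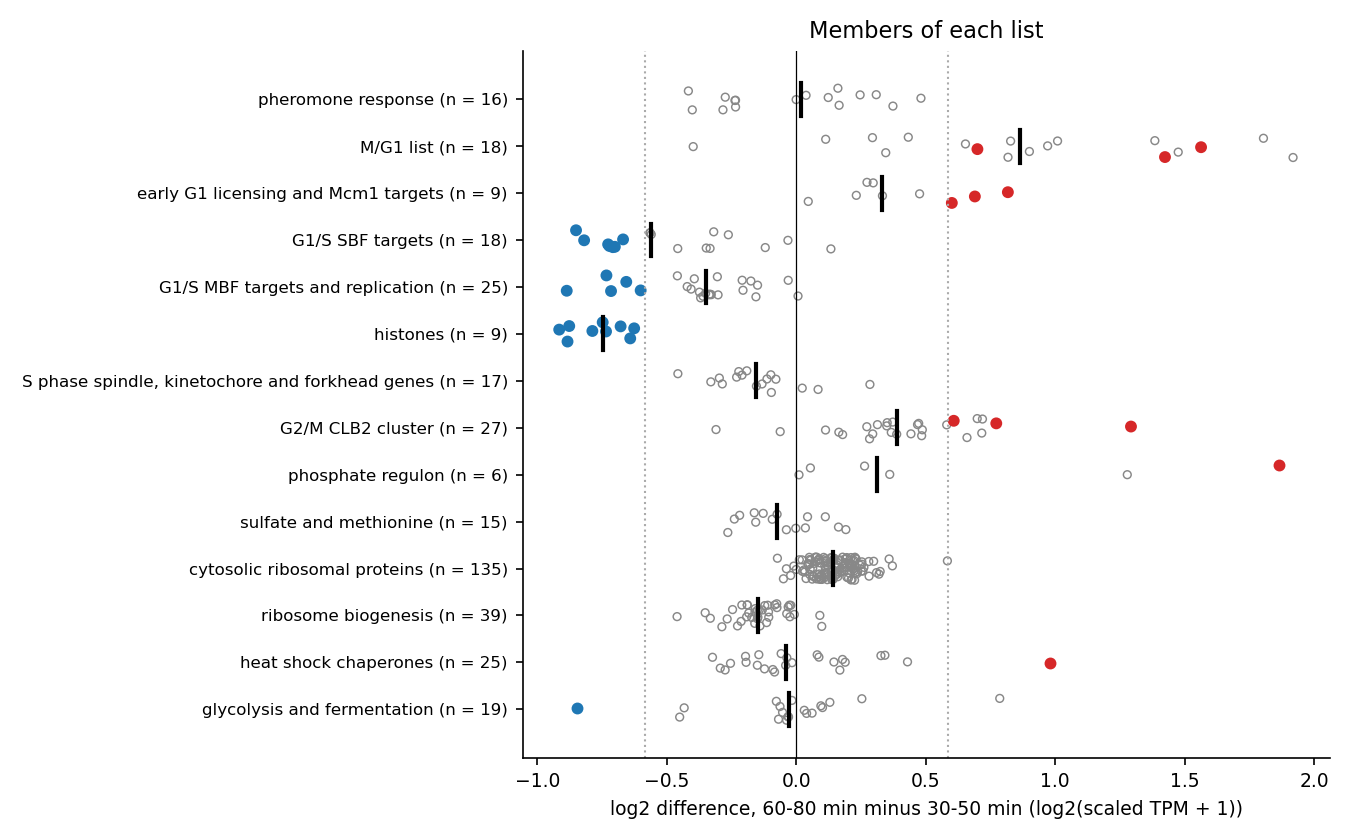
Difference of each tested list member (points), 60 to 80 min minus 30 to 50 min on the log2(scaled TPM + 1) scale (x axis), in 14 lists (y axis, with n the tested members). Filled points are called, in blue lower and in red higher, black bars are list medians, and dotted lines mark 1.5-fold. All 9 histone points are filled and to the left of 0, while 17 of the 18 points of the M/G1 list are to the right of it.

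The list of spindle, kinetochore and forkhead genes, which are expressed in S phase, lay between the programs. None of its 17 tested members was called, and the median was -0.15. The highest of the 6 time points was 40 min for 10 members and the lowest was 80 min for 11. YHP1, a homeobox repressor like YOX1, had the lowest difference of the list, with 45.4, 52.5 and 45.5 scaled TPM and then 39.3, 35.3 and 29.5. FKH1, a forkhead factor, had 41.9, 52.0 and 50.5 scaled TPM and then 48.4, 41.2 and 30.0, which overlapped. The cyclins CLB3 and CLB4 were nearly level. CLB3 lay between 21.2 and 27.1 scaled TPM and CLB4 between 13.8 and 17.7, and both windows overlapped for each.

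The CLB2 cluster, which holds mitotic cyclins and genes of mitosis and cytokinesis, crossed the border between the windows. The highest of the 6 time points was 60 min for 19 of 27 tested members and the lowest was 30 min for 24. CLB2, the main mitotic cyclin, had 20.5, 26.1 and 37.7 scaled TPM and then 39.6, 35.3 and 27.3. CLB1, its close relative, had 7.99, 16.9 and 23.8 and then 24.7, 20.9 and 14.4. For both, 50, 60 and 70 min were high, 30 min was low, and the windows overlapped. SWI5, which encodes a factor of the next wave, had 12.1, 24.2 and 32.9 scaled TPM and then 37.7, 33.8 and 26.9. At 60 min the members stood at a median of 1.98-fold their level at 30 min, while the level at 80 min was a median of 0.729 of that at 60 min.

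Of the 3 members that rose, DBF2 and SPO12 stayed high to 80 min, and KIN3 at 80 min was at 0.729 of its 60 min level. KIN3, a protein kinase, had 7.15, 10.9 and 20.7 scaled TPM and then 34.3, 32.8 and 25.04. Its mean went from 12.9 ± 7.02 to 30.7 ± 4.98, and the rise on the log2(scaled TPM + 1) scale was 2.45-fold. DBF2, a kinase of the mitotic exit network, had 21.6, 20.4 and 31.2 scaled TPM and then 39.2, 43.1 and 42.6. SPO12, which promotes release of the phosphatase Cdc14 and whose forkhead match is printed above, had 44.0, 62.2 and 60.4 scaled TPM and then 87.3, 84.7 and 81.0. The list median was 0.39 and 25 of 27 differences were above 0, yet 3 members were without overlap, compared to 11.4% of all features. Another 4 members exceeded 1.5-fold with overlapping windows, among them CHS2, the chitin synthase of the primary septum, with 24.6, 46.4 and 72.2 and then 86.6, 75.3 and 58.1 scaled TPM. The count depended on the border, since 13 members were called higher without 50 min and 8 without 80 min. Of all 5137 tested features, 90 and 60 were then called higher, in place of 50.

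**Figure D3:**
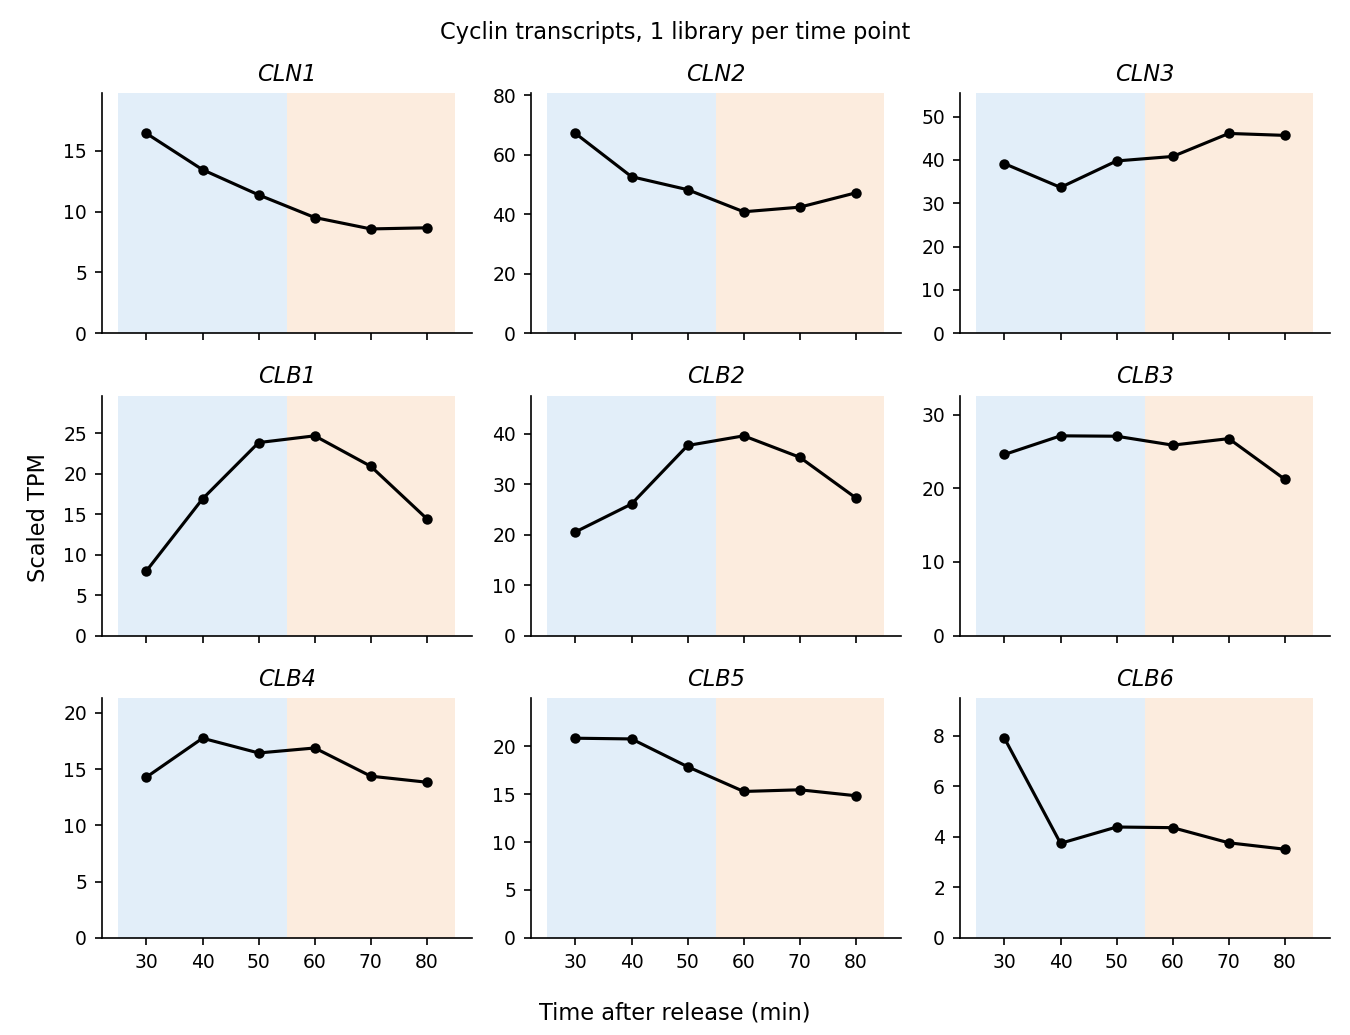
Levels of the 9 cyclin transcripts (y axis, scaled TPM, from 0) at each of the 6 time points (x axis, min), with 30 to 50 min shaded blue and 60 to 80 min orange and 1 library per point. CLN1 goes from 16.4 to 8.67 scaled TPM, CLB2 is highest at 60 min with 39.6, and CLB3 stays between 21.2 and 27.1.

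The genes of the M/G1 list, which act in the separation of mother and daughter and in the following G1, had the largest median difference of the 14 lists. The list median was 0.86 (0.56 without 80 min and 1.32 without 60 min), 17 of 18 differences were above 0, and 80 min was the highest of the 6 time points for 17 genes. PCL9, a cyclin partner of Pho85 in early G1, had 7.10, 5.40 and 5.45 scaled TPM and then 10.2, 26.2 and 27.5. The time points from 30 to 50 min were low, 60 min was intermediate and 70 and 80 min were high. The rise between the windows was 2.96-fold on the log2(scaled TPM + 1) scale. ASH1, a repressor that acts in daughter cells, had 29.1, 22.5 and 22.3 scaled TPM and then 41.4, 80.4 and 91.5, a 2.68-fold rise. NIS1, a bud neck gene, had 37.7, 34.3 and 34.7 scaled TPM and then 37.8, 62.5 and 83.8, and its windows were separated by 37.7 at 30 min and 37.8 at 60 min.

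Another 10 genes of this list exceeded 1.5-fold while their windows overlapped, and 15 of the 18 genes had more transcript at 30 than at 60 min. EGT2, a cell wall gene of cell separation, had 24.2, 14.3 and 9.93 scaled TPM and then 21.5, 79.1 and 125. PIR1, a cell wall protein gene, had 126, 93.7 and 57.1 scaled TPM and then 121, 430.1 and 565. SIC1, the inhibitor of B-type cyclin kinase, had 30.0, 23.6 and 22.3 scaled TPM and then 27.5, 58.6 and 67.2. In each, 60 min still belonged with the early window. CTS1, the chitinase of cell separation, was lowest at 60 min, with 186, 134 and 78.2 scaled TPM and then 72.3, 139 and 358. Its window means of log2(scaled TPM + 1) differed by 1.23-fold, although 80 min stood far above every other time point. From 60 to 70 min the list's median step was 0.996 and 17 genes were higher, and the level at 80 min was a median of 3.76-fold that at 60 min. Without 60 min 13 of these genes were called higher, and without 30 min 9. Of all 5137 tested features, 101 and 65 were then called higher, in place of 50. CIS3, another cell wall gene of the list, went against it, with 1477, 1740.3 and 1579 scaled TPM and then 1429, 1211 and 1026.

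The genes of licensing and early G1 turned higher before the M/G1 list and by less. MCM5, a subunit of the replicative helicase whose ECB match is printed above, had 13.02, 10.3 and 12.8 scaled TPM and then 18.8, 22.96 and 24.3, a 1.76-fold rise. MCM7 had 15.0, 17.1 and 24.4 scaled TPM and then 31.1, 31.6 and 28.5, and MCM2 had 13.2, 13.2 and 17.3 and then 22.1, 23.9 and 21.5. MCM7 and MCM2, subunits of the same complex, were level over 60 to 80 min, and MCM5 was highest at 80 min. All 9 differences were above 0, and 8 were without overlap, compared to 11.4% of all features. The highest time point was 70 min for 6. The exception to the separation was SWI4, the DNA-binding subunit of SBF, which lay between 10.6 and 13.6 scaled TPM. Without 30 min, 1 of the 9 was called higher, against 65 of all 5137 tested features.

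**Figure D4:**
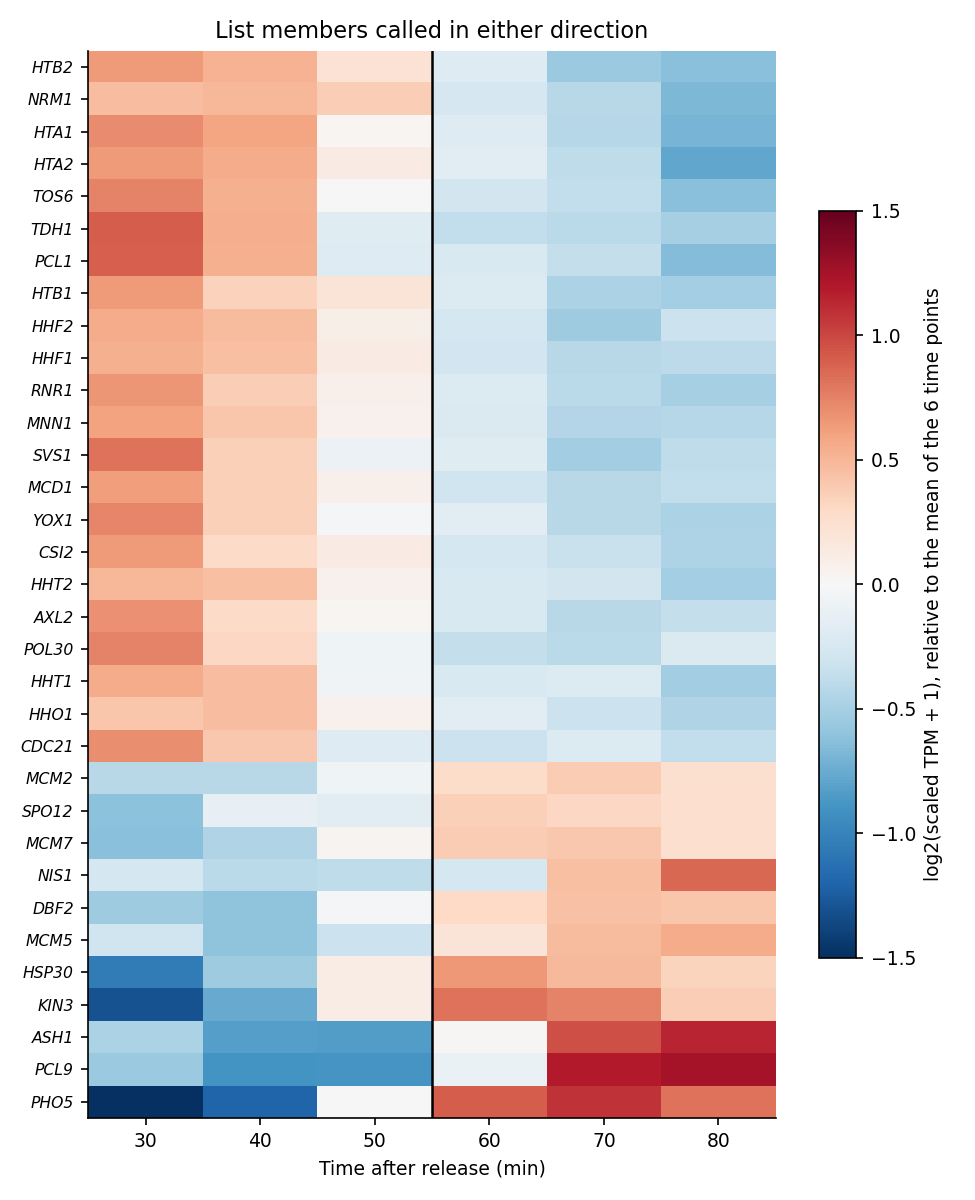
Levels of the 33 list members that were called (rows) at the 6 time points (columns, min), as log2(scaled TPM + 1) relative to the gene's mean over the 6, ordered by difference with the vertical line between the windows. PCL1 and CDC21 are already low at 50 min, whereas PCL9 and ASH1 turn high at 70 min.

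The other lists had few calls. No pheromone response gene was called, 8 of 16 differences were above 0 and the median was 0.019. FUS1, a cell fusion gene, had 47.6, 40.2 and 33.7 scaled TPM and then 31.4, 39.3 and 52.1, lowest in the middle of the interval. FAR1, the pheromone-dependent inhibitor of Cln kinase that is also expressed from mitosis to G1, was higher without overlap, with 30.3, 32.8 and 35.7 scaled TPM and then 43.4, 47.4 and 48.2. In the phosphate regulon, PHO5, the secreted acid phosphatase, had 19.002, 25.3 and 59.2 scaled TPM and then 112, 127 and 105, a 3.64-fold rise, and it was the only called member of the 6 tested. PHO3, the neighbouring acid phosphatase gene, had 214, 359 and 754 scaled TPM and then 1097, 1049 and 721, with a difference of 1.28 on the log2 scale and overlapping windows. PHO5 and PHO3 are similar in sequence, so reads may have been divided between them by estimation. PHO84, the phosphate transporter, and PHO8, the vacuolar phosphatase, had differences of 0.05 and 0.011.

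Genes of protein synthesis differed by small amounts. No member of the cytosolic ribosomal protein list was called, but 130 of 135 differences were above 0, 71 members were higher without overlap compared to 11.4% of all features, and the median was 0.14. The highest time point was 70 min for 111 of them. Of 39 ribosome biogenesis genes none was called and 37 had a difference below 0, with a median of -0.15, and 80 min was the lowest time point for 31. Many ribosomal protein genes are duplicated, with the same uncertainty as for the histones. Among 25 heat shock chaperones HSP30, a plasma membrane protein, was called, with 46.2, 66.2 and 104 scaled TPM and then 152, 135 and 122. The list median was -0.041, and SSA1, a cytosolic Hsp70, had 2892, 2179 and 1793 scaled TPM and then 1709, 1769 and 1907. Of 19 glycolytic genes TDH1, a minor isozyme of glyceraldehyde-3-phosphate dehydrogenase, fell 1.80-fold, with 177, 138 and 82.6 scaled TPM and then 72.7, 70.8 and 65.9, and the median was -0.030. No sulfate and methionine gene of 15 was called, with a median of -0.074.

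Outside the lists, 20 features fell and 39 rose. Of the 5 largest rises at a mean TPM of 50 or more among genes with a symbol, PHO5 was in a list and the others were not. YGP1, a secreted cell wall glycoprotein, had 155, 138 and 295 scaled TPM and then 585, 677 and 581, a 3.30-fold rise. YRO2, a membrane protein related to Hsp30, had 88.5, 70.4 and 136 scaled TPM and then 266, 307 and 236. OLE1, the fatty acid desaturase, had 62.4, 71.3 and 93.4 scaled TPM and then 139.7, 188 and 203. YNL058C, a gene of unknown function, had 40.8, 50.7 and 85.7 scaled TPM and then 114, 121 and 121. YGP1 and YRO2 were highest at 70 min like PHO5, whereas OLE1 was highest at 80 min. The 5 largest falls under the same rule were HTB2, HTA1, HTA2, TOS6 and TDH1.

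Some further genes were singled out after their values were seen. AIM44 and CYK3, which act at the bud neck in cytokinesis, had the course of PCL9 and ASH1. AIM44 had 6.38, 5.88 and 4.91 scaled TPM and then 9.79, 23.6 and 24.99, and CYK3 had 11.8, 11.9 and 10.7 and then 15.4, 26.9 and 28.6. MSA1, a regulator of G1-specific transcription, had 16.1, 13.9 and 15.9 scaled TPM and then 19.3, 27.7 and 26.7. HST4, a sirtuin gene, was level within each window, with 9.51, 9.28 and 9.72 and then 16.1, 16.3 and 16.2 scaled TPM. Among the falls, PRY2, a secreted sterol-binding protein, had 745, 702 and 512 scaled TPM and then 425, 347 and 333, and SCW10, a cell wall glucanase, had 567, 551 and 414 and then 342, 284 and 263. CIT2, the peroxisomal citrate synthase, had 84.5, 81.2 and 70.8 scaled TPM and then 59.0, 46.9 and 33.0. The largest calls were the least certain. YJR140W-A, the 1 fall past 2-fold, had 44.8, 35.8 and 71.5 scaled TPM and then 27.6, 16.1 and 6.73, and YKL106C-A and PLS1 were listed at 0 in at least 1 library. Reading frames that overlap a named gene, such as YNL057W on YNL058C and YKR012C on PRY2, were called with it, and the strand setting of the counting is not given in the sources used here.

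The features that fell were highest at 30 min in 31 cases, at 40 min in 8 and at 50 min in 3. Those that rose were highest at 60 min in 6 cases, at 70 min in 19 and at 80 min in 25. The 8 cell cycle lists, each with 9 to 27 of the 5137 tested features, held 21 of the 42 falls and 9 of the 50 rises. R64 holds a record for 35 of the falls and 42 of the rises with a promoter that could be searched.

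The elements printed above were then counted in all upstream windows. SCB letters were present upstream of 16 of 35 searched genes that fell (45.7%) and 8 of 42 that rose (19.05%), compared to 14.6% of all 6001 windows. All 720 tested genes with SCB letters had a median log2 difference of -0.036 with 427 below 0, compared to a median of -0.0064 for all features. The 647 outside the lists had a median of -0.034. The ECB was present upstream of 6 of the 42 that rose (14.3%) and 1 of the 35 that fell, compared to 0.850% of all windows. The 6 were MCM5, MCM7, SPO12, HST4, YNL058C and YML119W, and the gene that fell was PRY2. All 42 tested genes with an ECB, called or not, had a median log2 difference of 0.21 with 34 above 0, and the 26 of them outside the lists had a median of 0.13. The 156 tested genes with an MCB had a median of -0.12 with 117 below 0, and the 132 outside the lists had a median of -0.088.

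The remaining elements were also counted. The 334 genes with the forkhead letters had a median of -0.029, compared to -0.0064 for all features and -0.036 for the genes with SCB letters. Within their own lists, the forkhead letters were found in 11 of 29 windows of the CLB2 cluster against 6.999% of all, the MCB in 23 of 32 of the MBF list against 3.48%, and the E-box in 5 of 11 of the phosphate regulon against 3.57%. The forkhead letters were also in 8 of 21 of the S phase spindle, kinetochore and forkhead list and 4 of 11 of the phosphate regulon. SCB letters were in 10 of 18 windows of the SBF list, 6 of 9 of the licensing list and 3 of 9 of the histones. In these windows KIN3 had no forkhead letters and HTA1 and HTA2 no SCB, which says only that these letters are not there.

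Later windows of the same culture, which share no library with the first cycle, gave fewer calls. When 140 to 160 min was set against 110 to 130 min, an offset of 80 min, 12 features (0.234%) were called lower and 5 (0.0973%) higher. The study names 140 and 150 min as anomalous libraries. Its text also describes 110 min, which is in the early window of both later comparisons, as mildly raised. A figure legend and a table of the study name 100 min in its place. At 110 min, before scaling, 12.1% of the tested features were above both neighbouring time points and 51.3% were below both. Before scaling 58.1% of the tested features were above both neighbouring time points at 150 min. Below both were 62.2% at 130 min and 61.8% at 160 min. After scaling, 31.2% were above and 40.6% below both at 150 min. With 160 to 180 min in place of 140 to 160 min, 15 (0.292%) were lower and 11 (0.214%) higher.

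The CLB2 cluster was also above 0 in the later windows. Its median was 0.35 at 140 to 160 min and 0.39 at 160 to 180 min, with 20 and 23 of 27 members higher without overlap, compared to 7.42% and 11.1% of all features. CLB2 had a later log2 difference of 0.45 and CLB1 of 0.62, compared to 0.30 and 0.37 in the first cycle. The first cycle values depended on the early border, since without 30 min the list median was 0.17 and CLB1 was at -0.037, and without 50 min they were at 0.66 and 0.70. SBF and MBF lists were at -0.095 and -0.046, and at -0.19 and -0.18 with 160 to 180 min. The M/G1 list was at -0.20 and 0.051, the histones at 0.13 and -0.016, and the licensing list at 0.034 and 0.083. The S phase spindle, kinetochore and forkhead list was at 0.17 and 0.22, the pheromone list at -0.19 and -0.28, and the glycolysis list at -0.19 and -0.028, compared to -0.15, 0.019 and -0.030 in the first cycle. With 110 min left out, an alternative added after the data were seen, the CLB2 cluster was at 0.32 and the histones at -0.0090. The offset of 80 min was fixed and not fitted to the culture's second cycle, so a list may be at another stage there. Of the 42 features that fell in the first cycle, 27 had a later difference below 0 and the median was -0.090. Of the 50 that rose, 28 were above 0 and the median was 0.016. The median of all tested features was -0.019 in this later comparison and -0.0031 with 160 to 180 min.

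**Figure D5:**
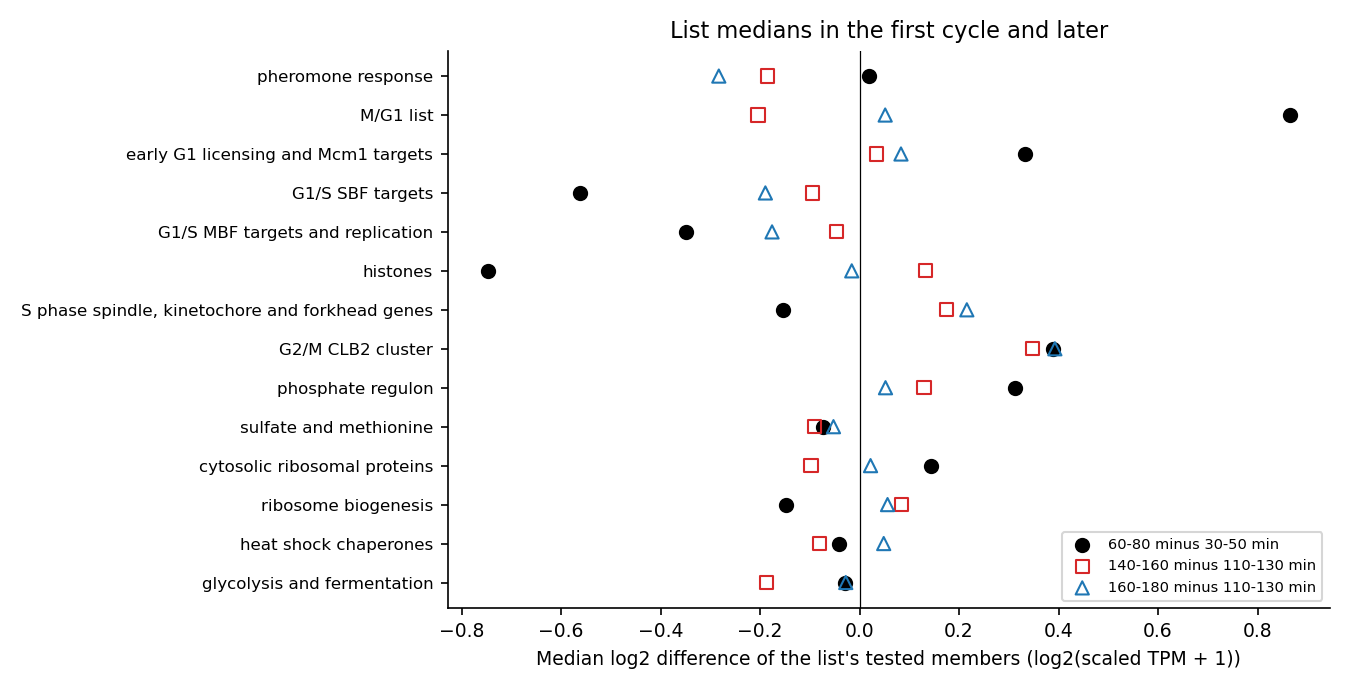
Median difference of the tested members of each list (y axis) on the log2(scaled TPM + 1) scale (x axis) in the first cycle (black circles), for 140 to 160 minus 110 to 130 min (red squares) and for 160 to 180 minus 110 to 130 min (blue triangles). The 3 symbols of the CLB2 cluster lie between 0.35 and 0.39, while those of the histones run from -0.75 to 0.13.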

How the data were processed

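The authors used STAR for alignment of the stranded mRNA libraries and RSEM for quantification, and they deposited the resulting TPM per feature, and R64 is the build named in the submitters' processing notes. Versions are not given in the sources used here. The authors also deposited corrected scores, which served as an alternative. TPM sum to 1000000 per library and keep no depth. Here TPM were divided by median-of-ratios factors from the 6170 features above 0 in all 30 libraries, and log2(scaled TPM + 1) was averaged over the 3 time points of each window, so the fold of a low gene is understated. Symbols came from R64 by locus tag (6047 features, 4773 of those tested). Genes were named by rule: the 9 cyclins, the 3 called members with the largest difference of each cell cycle list, 1 of each other list, and the 5 largest rises and 5 largest falls with an R64 symbol and a mean of at least 50 TPM. Other genes named were chosen after their values were seen. The windows, the members and the lists were chosen with earlier results of these data known. The alternatives were other scalings, filters, pseudocounts, folds and windows, and leaving out each time point. Python 3.11.15, numpy 2.4.6, pandas 2.3.3 and matplotlib 3.10.9 were used, and the computation was tested on simulated data. An element searched and 1 upstream sequence are not reported here.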

Additional observations from a re-analysis of the deposited data

How the results depend on the processing

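No paired analysis was possible because there is a single library at every time point. The 25 named genes past 1.5-fold kept their sign in all 300 values under the alternatives. They were called for windows that do not overlap, so leaving out a time point could not reverse their sign. Of the 42 falls and 50 rises, 38 and 48 were also called after quantile normalization and all without scaling. The count of falls was 1 at a 2-fold minimum, 643 without a fold minimum and 30 to 76 when 1 time point was left out. The count of rises was 80 without a filter on low values, 16 at a 2-fold minimum, 584 without a fold minimum and 50 to 101 when 1 time point was left out. Of the falls 28 and of the rises 41 were also called without 30 min. When 1 time point was left out, the medians ran from -0.073 to 0.098 for the pheromone, -0.13 to 0.062 for the heat shock, -0.063 to 0.016 for the glycolysis and -0.22 to -0.079 for the ribosome biogenesis list. The sulfate and methionine median was -0.038 with a minimum of 1 TPM or no filter, and -0.100 to -0.013 when 1 time point was left out. With 160 to 180 min in place of 140 to 160 min, 11 features were higher, and the medians were -0.28 for the pheromone, -0.052 for the sulfate and methionine, 0.022 for the ribosomal protein and -0.028 for the glycolysis list. With 110 min left out of the later comparison, added after the data were seen, 18 features were lower, 9 were higher and the sulfate and methionine median was -0.032. In the deposited corrected scores, added after the data were seen, all 42 falls and 50 rises had the same direction and 41 and 50 were without overlap. These scores come from the same libraries, so this is no independent check. With 1 culture and 1 library per time point, technical and biological variation cannot be told apart, and the unknown depth gives no error for low transcripts.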
